A study of Mus musculus with 4 samples.

Results

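Lag3, Pdcd1, Tigit, Havcr2, Btla and Cd160 are 6 genes for receptors that restrain lymphocytes, and they were followed here by symbol among the 31053 genes listed for single cells of the mouse lung. The group was put together because Lag3 was low in CD4 T cells of mice lacking Ift20 in T cells. Those Lag3 values, and the other values of the same 4 libraries, are therefore given as a description and no test is made of them.

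All mice were on the C57BL/6 background and carried floxed Ift20 alleles, and the study's methods describe males of 5 to 10 weeks. Ift20 f/f mice without Cre are called WT, and Ift20 f/f CD4 cre mice are called KO. In the KO, Cre is driven by Cd4 regulatory sequence and is made in developing T cells, so that cells of the CD8 lineage are deleted as well. Papain, a plant protease that acts as an inhaled allergen, was given intranasally at 25 µg on 3 days in a row and again on day 14, and lungs were taken on day 15. Controls were given DPBS, which is buffered saline. CD45.2+ live immune cells were sorted and made into droplet libraries with a 10x Genomics 3′ kit, 1 for each group. Where 4 values are given in a row below, they are in the order DPBS WT, DPBS KO, Papain WT, then Papain KO. The number of mice behind a library is not given in the sources used here. With 1 library per group, the spread between mice is unknown, and no p-value was computed.

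Inhibitory receptors damp signals from the antigen receptor and from costimulatory receptors. Many of them, but not all, are switched on or kept by lymphocytes that have met antigen. Several are known as markers of activated, regulatory and exhausted T cells, and antibodies that block some of them are used against tumours. LAG3 binds MHC class II and FGL1 and is shed from the cell by the proteases ADAM10 and ADAM17. PD-1, made from Pdcd1, binds PD-L1 (Cd274) and PD-L2 (Pdcd1lg2) and recruits the phosphatase SHP-2. TIGIT competes with the activating receptor CD226 for the poliovirus receptor (Pvr). TIM-3, made from Havcr2, has galectin-9 and CEACAM1 among its ligands. BTLA and CD160 both bind the herpesvirus entry mediator HVEM (Tnfrsf14).

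In the GENCODE M21 annotation of GRCm38, Lag3 lies at chr6:124904361-124911705 and Pdcd1 at chr1:94038305-94052553, both on the minus strand. Tigit lies at chr16:43648867-43664146 on the minus strand and Btla at chr16:45224315-45257670 on the plus strand. Havcr2 lies at chr11:46454935-46481255 on the plus strand. Cd160 lies at chr3:96798763-96829351 on the minus strand and overlaps Pdzk1 on the other strand, whereas the other 5 overlap no gene. The promoters of Pdcd1 and Tigit, which had negative log2 ratios of KO to WT in CD4 T cells after papain, and of Btla, which had a ratio near 0, are shown with letters that form the core of an NFAT site (GGAAA, either strand) in capitals. NFAT is a factor switched on by antigen receptor signalling. The windows run from 250 bases before to 50 bases after the start of the RefSeq gene in GRCm38.p6, read along the gene's strand, and cover chr1:94052504-94052803 (minus strand) for Pdcd1, chr16:43664135-43664434 (minus strand) for Tigit and chr16:45224087-45224386 (plus strand) for Btla.
Pdcd1: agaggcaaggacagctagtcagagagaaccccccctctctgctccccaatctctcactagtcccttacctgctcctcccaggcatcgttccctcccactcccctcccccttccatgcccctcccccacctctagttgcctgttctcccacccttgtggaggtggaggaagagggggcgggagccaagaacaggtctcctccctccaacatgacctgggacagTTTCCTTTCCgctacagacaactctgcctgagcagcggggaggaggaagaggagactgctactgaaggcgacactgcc
Tigit: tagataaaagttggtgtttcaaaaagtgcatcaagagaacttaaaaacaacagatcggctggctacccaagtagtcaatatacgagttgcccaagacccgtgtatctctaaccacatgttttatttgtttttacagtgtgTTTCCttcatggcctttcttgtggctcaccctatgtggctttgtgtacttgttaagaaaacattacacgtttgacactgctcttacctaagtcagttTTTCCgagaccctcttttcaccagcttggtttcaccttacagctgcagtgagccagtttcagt
Btla: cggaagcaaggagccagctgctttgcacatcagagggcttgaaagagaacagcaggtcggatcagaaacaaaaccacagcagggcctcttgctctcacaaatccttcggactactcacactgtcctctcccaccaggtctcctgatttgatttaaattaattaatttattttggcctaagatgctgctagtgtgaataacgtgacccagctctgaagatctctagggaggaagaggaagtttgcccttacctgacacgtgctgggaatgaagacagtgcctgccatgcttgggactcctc
The core occurs 2 times in the Pdcd1 window, 2 times in the Tigit window and 0 times in the Btla window. The window of Havcr2, whose ratio was also negative, has 0 cores, and the windows at 2 starts of Cd160 have 0 and 1, so the count of cores did not follow the ratios. It is a common short word, present in 61.3% of all 32851 RefSeq promoter windows of this length. A site for the partner factor AP-1 (TGANTCA, either strand), present in 7.81% of the windows, was found in none of the 3 but occurs once in that of Havcr2. A match describes the letters in a window and is not evidence of binding.

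The files held 28805 cell barcodes, of which 25831 were kept, with 5421 to 7559 cells and a median of 5842 to 6680 unique molecular identifiers (UMIs, each standing for 1 captured transcript) per library. Between 27 and 39 barcodes of a library also occurred in another library. Levels are the UMIs of a gene in a cell class scaled to a total of 1000000 UMIs (CPM). Brackets give 95% intervals, exact Poisson for CPM, exact conditional binomial for ratios and Clopper-Pearson for shares. They cover counting error only, and since several UMIs of a gene often came from 1 cell they are narrower than the true error. In CD4 T cells, Ift20 was at 58.5, 21.7, 58.9 and 18.1 CPM, which fits the genotype labels, although a 3′ library counts the transcript's end and not the deleted exons. Cell classes were rebuilt here from clusters and markers, so each name stands for cells like that type. In CD4 T cells, Cd3e was found in 93.5% to 94.6% of the cells of each library, Cd4 in 60.0% to 73.0% and Cd8a in 0.735% to 1.16%. Free RNA was present, since Lyz2, a gene of myeloid cells, had a UMI in 40.8% to 52.5% of CD4 T cells.

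Lag3 was a gene of few cells in several lineages, and CD4 T cells were not its highest class. Of 847 Lag3 UMIs in all classes, 26.7% were in CD4 T cells and 26.3% in a small cluster of dendritic cells led by Cd209a, although these 2 classes held 12.8% and 2.21% of all UMIs. The dendritic cluster, with 287 cells, had 43.3 CPM (37.8 to 49.4). Plasma cells had 35.3 CPM (27.2 to 45.1) but numbered only 43. T cells led by the gamma-delta receptor gene Trdc had 12.1 CPM (5.52 to 22.9), T cells without a call of CD4 or CD8 10.6 CPM (8.09 to 13.7) and CD4 T cells 7.59 CPM (6.63 to 8.65). The intervals of these last 3 classes overlapped. Conventional type 1 dendritic cells (6.20 CPM), NK cells (5.57), T cells with NK receptors (4.98) and CD8 T cells (4.47) followed, and their intervals overlapped one another.

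**Figure D1:**
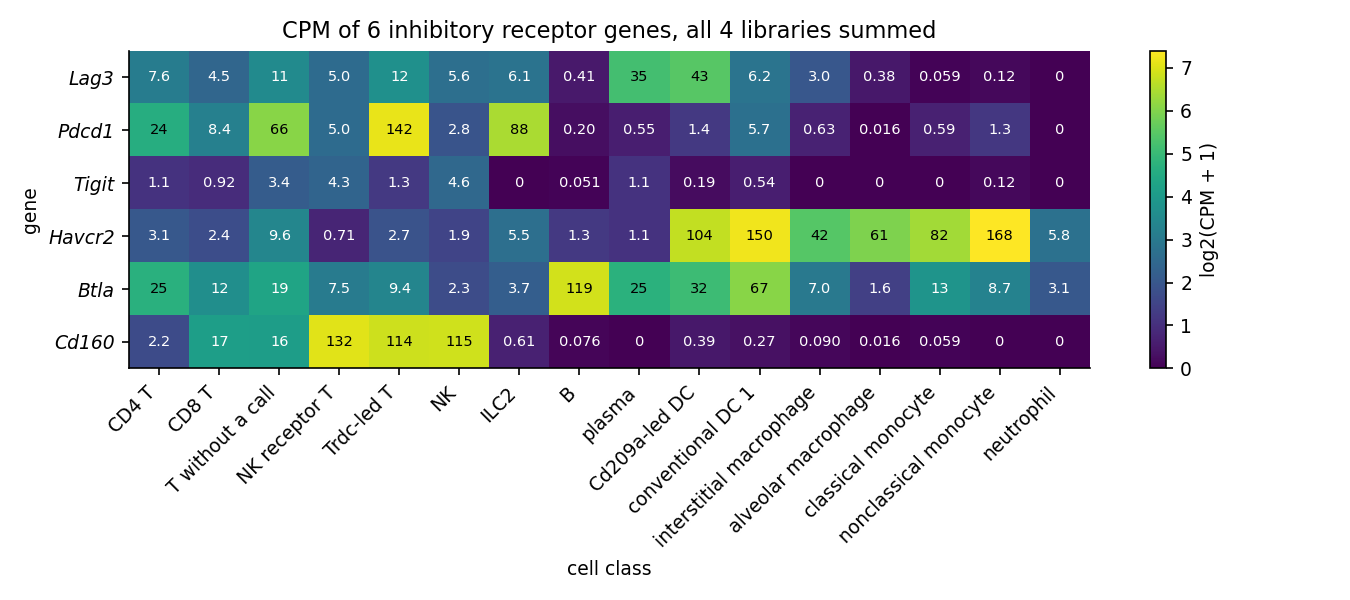
Levels of the 6 genes (rows) in 16 cell classes (columns), as CPM over the summed UMIs of all 4 libraries, printed in each cell and coloured by log2(CPM + 1). Lag3 is highest in the Cd209a-led dendritic cells, Pdcd1 in Trdc-led T cells and ILC2, Havcr2 in monocytes and dendritic cells, Btla in B cells and Cd160 in NK cells and T cells with NK receptors.

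B cells, alveolar macrophages and neutrophils were read as a background. Plasma cells, of the B lineage, carried Lag3, and the part of free RNA in the B cell value was not tested. B cells had 16 UMIs in 7597 cells, or 0.408 CPM. Alveolar macrophages were at 0.383 CPM, and neutrophils had 0 UMIs in 817 cells. Type 2 innate lymphoid cells (ILC2) had 6.10 CPM, but all 10 UMIs came from 2 cells of Papain WT, and the other 3 libraries had 0.

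**Figure D2:**
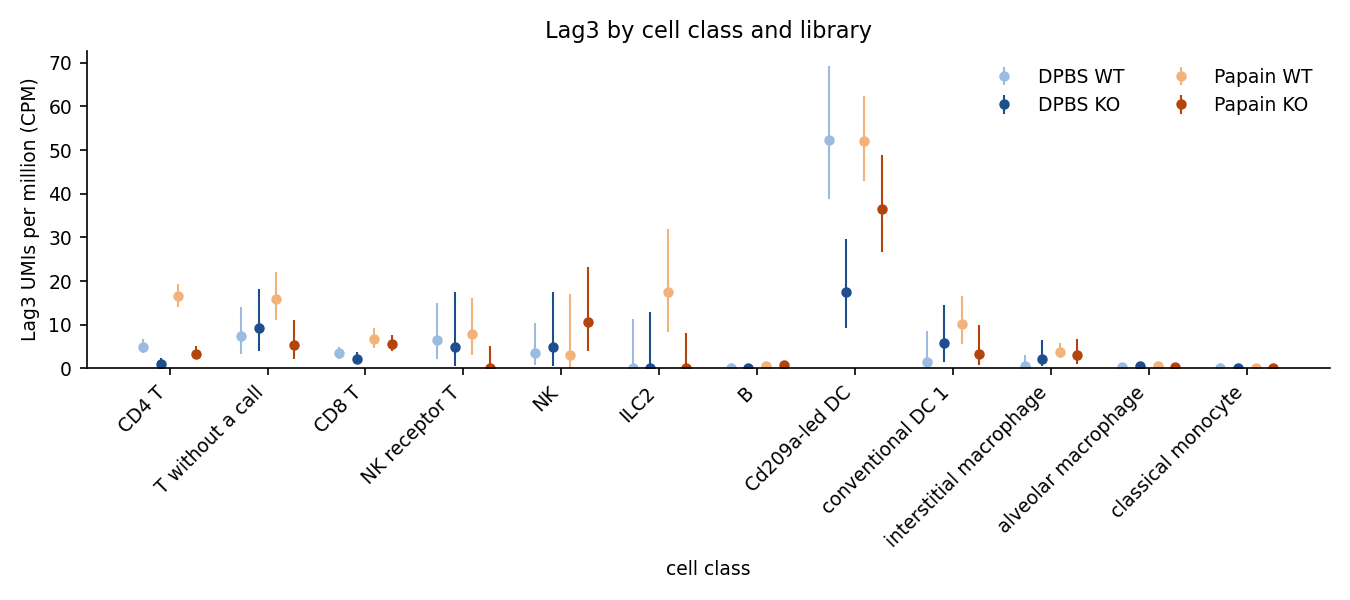
Lag3 CPM (vertical axis) by cell class (horizontal axis) in each of the 4 libraries, with exact 95% Poisson intervals for counting error. In CD4 T cells Papain WT, at 16.5 CPM, stands above the other libraries, while the Cd209a-led dendritic cells have the highest levels of the classes plotted in every library.

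Within the dendritic cluster, Lag3 was at 52.4, 17.4, 52.0 and 36.5 CPM. DPBS KO thus lay below the other libraries, with a log2 ratio of KO to WT of -1.59 (-2.60 to -0.69) after DPBS and -0.51 (-1.04 to -0.00) after papain. The cluster was mixed, because some of its cells carried Siglech and Ccr9, genes that mark plasmacytoid dendritic cells, the specialised makers of type I interferon. Siglech was picked for a split after it had been seen among the genes with a pattern most like Lag3, so the split is a description. The 58 cells with a Siglech UMI had Lag3 at 154 CPM (130 to 180), with a Lag3 UMI in 70.7% of them. The 229 cells without had 18.1 CPM (14.3 to 22.7). Cd3e, a T cell gene, was found in 15.5% and 15.7% of these cells. Over the whole cluster it was found in 19.3% of the 83 cells with a Lag3 UMI and 14.2% of the 204 without, and the part of T cell transcripts in the Lag3 level was not tested. Ccr9 was at 746 CPM in the cells with Siglech and 5.25 CPM in those without.

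The cells with Siglech were unevenly spread, with 10, 1, 34 and 13 cells of the 56, 45, 127 and 59 in the cluster. Their Lag3 level was 152, 304, 143 and 174 CPM, the second value resting on 1 cell. Cells of the cluster without Siglech had 33.2, 12.2, 20.5 and 6.90 CPM. The library with the lowest cluster value, DPBS KO, also had the fewest Siglech cells, and the part of these cells in the difference was not tested.

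The other members each had a home of their own. Pdcd1 was highest in Trdc-led T cells at 142 CPM (116 to 172) and in ILC2 at 87.8 CPM (74.1 to 103), ahead of T cells without a call at 66.3 CPM (59.7 to 73.4) and CD4 T cells at 23.5 CPM (21.8 to 25.3). In Trdc-led T cells it was at 73.7, 286, 145 and 68.5 CPM, and 52 of their 106 UMIs came from the 23 cells of DPBS KO. In ILC2, innate cells that make type 2 cytokines, it was at 73.6, 59.5, 106 and 92.7 CPM. The order of these 2 classes thus differed between libraries, with nearly the same level in DPBS WT and ILC2 the higher in Papain KO. All 4 ratios between the libraries in ILC2 had intervals that held 0, with KO to WT after papain at -0.20 (-0.80 to 0.39). Tigit was scarce throughout, with 107 UMIs in all, and its highest classes were NK cells at 4.64 CPM (2.23 to 8.54) and T cells with NK receptors at 4.27 CPM (2.21 to 7.46).

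Havcr2 was a myeloid gene in these lungs. It was at 168 CPM (159 to 177) in nonclassical monocytes, 150 CPM (138 to 163) in conventional type 1 dendritic cells, 104 CPM (95.5 to 113) in the Cd209a-led cluster and 82.1 CPM (77.9 to 86.6) in classical monocytes. Alveolar macrophages, at 61.4 CPM, held 41.2% of its UMIs. In CD4 T cells it was at 3.12 CPM (2.52 to 3.83), against 1.33 CPM in B cells, which should lack it. In nonclassical monocytes it was at 169, 183, 163 and 156 CPM, so the libraries differed little.

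Btla belonged to B cells, which held 68.1% of its UMIs at 119 CPM (115 to 122). The B cell level was 128, 116, 108 and 124 CPM, a narrow range. Conventional type 1 dendritic cells had 66.8 CPM (58.8 to 75.7), the Cd209a-led cluster 32.4 CPM (27.7 to 37.7) and CD4 T cells 25.2 CPM (23.4 to 27.0). Cd160, a receptor of NK cells and cytotoxic lymphocytes, was at 132 CPM (119 to 146) in T cells with NK receptors, 115 CPM (101 to 130) in NK cells and 114 CPM (91.0 to 141) in Trdc-led T cells. These 3 were not separated beyond counting error. In NK cells Cd160 was at 121, 79.5, 156 and 109 CPM in the 4 libraries, with KO below WT after DPBS at -0.61 (-1.22 to -0.03) and after papain at -0.52 (-1.08 to 0.04). NK cells are not a target of this Cre, and their Ift20 was at 115, 106, 119 and 103 CPM.

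CD4 T cells held 39 Lag3 UMIs in DPBS WT and 6 in DPBS KO, against 158 and 23 with the allergen. The levels were 4.88 CPM (3.47 to 6.67), 1.11 CPM (0.408 to 2.42), 16.5 CPM (14.0 to 19.3) and 3.39 CPM (2.15 to 5.08). Papain WT stood above the rest and DPBS KO below, and Papain KO lay close to DPBS WT. KO over WT gave a log2 ratio of -2.28 (-2.98 to -1.65) after papain, or 4.86-fold lower, and -2.13 (-3.67 to -0.88) after DPBS. Papain over DPBS gave 1.76 (1.24 to 2.30) in WT and 1.61 (0.27 to 3.20) in KO. Each library enters 2 of these 4 ratios, so they are not independent of one another.

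The UMIs came from few cells. A Lag3 UMI was present in 20 of 1255 CD4 T cells of DPBS WT, 3 of 865 of DPBS KO, 48 of 1361 of Papain WT and 9 of 927 of Papain KO. These are 1.59%, 0.347%, 3.53% and 0.971%, at median depths of 5337, 5881, 6000 and 6307 UMIs per cell. B cells, read as a background, had 0.0444%, 0%, 0.285% and 0.342% at 3883, 4224.5, 4386 and 4783 UMIs. The CD4 T value of DPBS KO rests on 6 UMIs in 3 cells, and so do both ratios that use it. After thinning every cell to 1000 UMIs, which left out 1 cell of Papain WT, the CD4 T shares were 0.398%, 0%, 0.735% and 0.108%. Those thinned shares rest on at most 10 cells and no order was read from them. In Papain WT, 94 of the 158 UMIs lay outside the 5 cells with most, against 4 of 23 in Papain KO, 18 of 39 in DPBS WT and 0 of 6 in DPBS KO.

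Pdcd1 followed the pattern of Lag3 after papain. It had 76, 32, 509 and 83 UMIs, or 9.50, 5.92, 53.1 and 12.2 CPM. Papain WT was far above the other libraries. KO to WT was -2.12 (-2.47 to -1.78) after papain and -0.68 (-1.33 to -0.07) after DPBS, and papain over DPBS was 2.48 in WT and 1.05 in KO. The DPBS difference between genotypes did not hold under every choice. It was 0.12 without dividing cells, 0.19 as a mean of per-cell CPM and -0.07 without cells of more than 20000 UMIs.

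Tigit had 3, 6, 19 and 5 UMIs in the 4 libraries, and KO to WT after papain was -1.43 (-3.20 to 0.04), an interval that held 0. Havcr2 had 8, 11, 53 and 21 UMIs, or 1.00, 2.04, 5.53 and 3.09 CPM, and KO to WT after papain was -0.84 (-1.64 to -0.08). Papain WT was again the highest library for both genes. The B cell level of Havcr2 did not move in this way, at 1.59, 1.46, 1.07 and 1.27 CPM.

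Btla and Cd160 did not follow Lag3. Btla had 203, 123, 238 and 185 UMIs, or 25.4, 22.8, 24.8 and 27.3 CPM, and its 4 log2 ratios lay between -0.16 and 0.26. The interval of KO to WT after papain, 0.13 (-0.15 to 0.42), lay far from that of Lag3. Cd160 had 28, 3, 23 and 13 UMIs, or 3.50, 0.555, 2.40 and 1.91 CPM. It was low in DPBS KO, with KO to WT of -2.66 (-5.02 to -0.96) after DPBS, and -0.33 (-1.43 to 0.72) after papain.

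**Figure D3:**
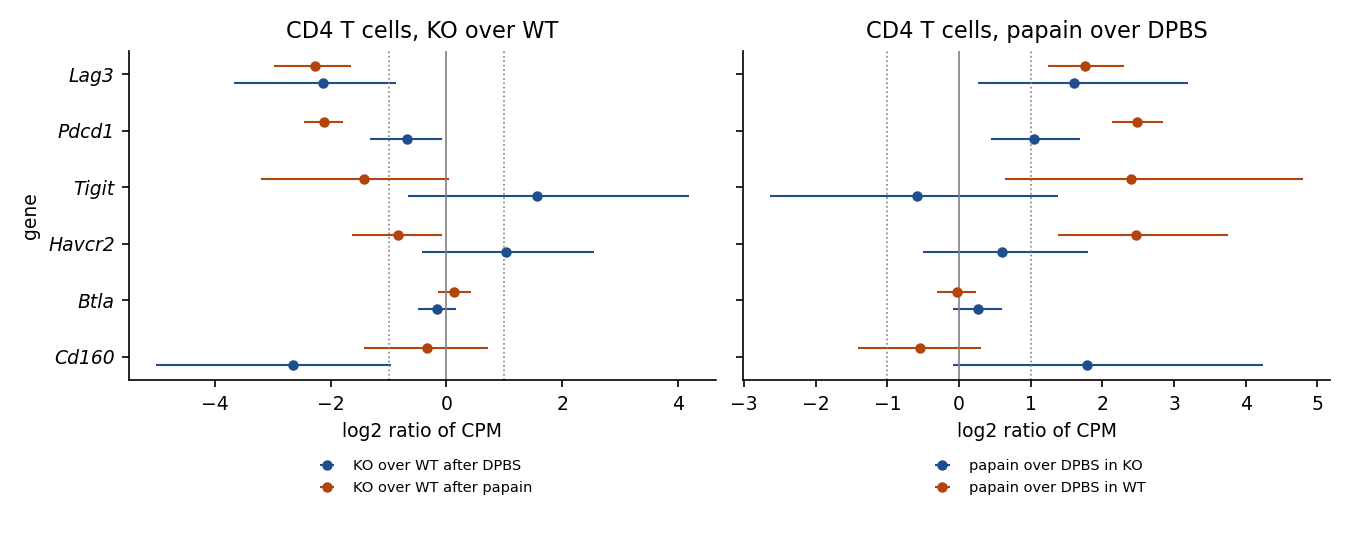
Log2 ratios of CPM in CD4 T cells for the 6 genes, KO over WT on the left (after DPBS and after papain) and papain over DPBS on the right (in KO and in WT), with exact 95% intervals for counting error. Dotted lines mark 2-fold. Lag3 and Pdcd1 lie beyond the line for KO over WT after papain, at -2.28 and -2.12, and Btla lies near 0 in all 4 ratios.

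Counted as 2-fold or more with at least 20 UMIs over both libraries, 3 of the 6 genes (Lag3, Pdcd1 and Tigit) were lower in KO than in WT after papain and 0 were higher, with a median log2 ratio of -1.13. Among all 10859 genes with that many UMIs in CD4 T cells, 3.49% were lower and 1.34% higher, with a median of -0.10. After DPBS, 2 of the 4 members measured (Lag3 and Cd160) were lower and 0 higher, against 4.25% and 1.17% of 10353 genes. Papain over DPBS in WT was 2-fold higher or more for 4 of 6 (Lag3, Pdcd1, Tigit and Havcr2), against 5.24% of 10897 genes. In KO it was so for 2 of the 4 measured (Lag3 and Pdcd1), against 4.05% of 10280 genes. The members were chosen on one of these contrasts, so nothing is read from the first of these counts, and the others share its libraries.

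The libraries differed in which CD4 T cells they held. CD4 T cells were divided into sub-clusters led by genes of naive, effector or memory, regulatory, type 17 and dividing cells, and these names were given after the clusters had been seen. Naive-type cells had almost no Lag3, with 4, 1, 0 and 0 UMIs. They supplied 72.1%, 86.1%, 59.7% and 73.5% of the CD4 T UMIs, while effector or memory cells supplied 4.27%, 3.42%, 13.7% and 4.38%. Both KO libraries thus held more naive-type RNA than the WT library of the same treatment. The Lag3 values within sub-clusters rest on few UMIs of Papain KO. In effector or memory cells, 63 UMIs in 168 cells of Papain WT (48.0 CPM) compared with 5 in 42 cells of Papain KO (16.8 CPM), a log2 ratio of -1.51 (-3.18 to -0.21).

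In effector regulatory T cells, which express Foxp3 and restrain other T cells, Lag3 had 48 UMIs (71.2 CPM) in Papain WT but 6 (24.1 CPM) in Papain KO, a log2 ratio of -1.56 (-3.08 to -0.33). DPBS WT had 1 UMI there and DPBS KO 0. In dividing cells the ratio was -1.09 (-2.22 to -0.07), from 34 and 11 UMIs, and DPBS WT had 23 UMIs against 0 in DPBS KO, at least 1.60-fold lower against a floor of 3 UMIs. Dividing cells were few, 34, 10, 40 and 20, but deep in UMIs. Type 17 cells had only 0, 0, 6 and 1 Lag3 UMIs.

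Weighting the sub-clusters of every library as in Papain WT gave Lag3 levels of 7.32, 3.16, 16.5 and 5.84 CPM. With these weights KO to WT was -1.50 after papain, against -2.28 unweighted, and -1.21 after DPBS. Papain over DPBS in WT was 1.17 in place of 1.76. The direction was the same in all 4 ratios, and each was smaller in size.

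After papain, Pdcd1 was also lower in KO within the sub-clusters given here. In effector regulatory T cells it was at 47.4, 36.1, 271 and 145 CPM, and KO to WT after papain was -0.91 (-1.46 to -0.38). In effector or memory cells it was at 5.86, 48.8, 130 and 43.8 CPM, with -1.57 (-2.51 to -0.76) after papain, and the first value rests on 2 UMIs. Type 17 cells, with 91.1 CPM in Papain WT but 21.7 CPM in Papain KO, gave -2.07 (-3.46 to -0.92). With Papain WT weights the Pdcd1 levels were 13.4, 14.3, 53.1 and 21.4 CPM, so that KO to WT was -1.31 after papain and 0.10 after DPBS. Pdcd1 thus did not follow Lag3 after DPBS, where the weighted ratio of Lag3 was -1.21.

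**Figure D4:**
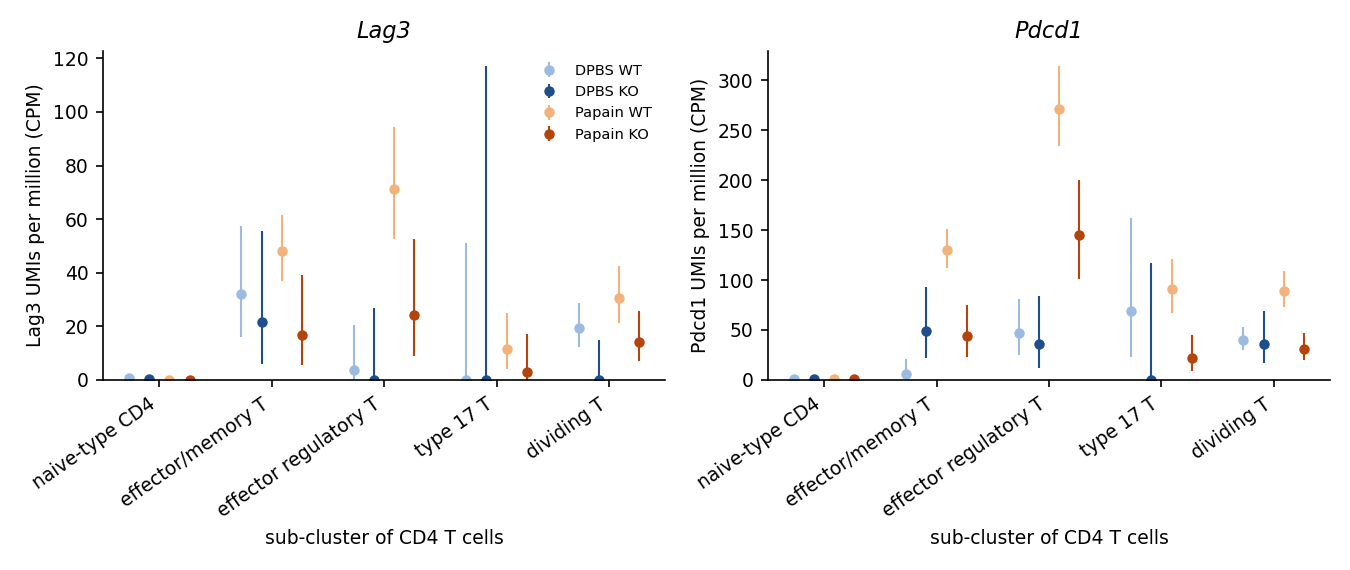
Lag3 (left) and Pdcd1 (right) CPM in 5 sub-clusters of CD4 T cells (horizontal axis) in the 4 libraries, with exact 95% Poisson intervals for counting error. Both genes are near 0 in naive-type cells and highest in effector regulatory T cells of Papain WT, at 71.2 and 271 CPM, with Papain KO lower at 24.1 and 145 CPM.

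A split by transcripts in place of clusters gave the same order after papain. CD4 T cells with a Foxp3 UMI numbered 44, 24, 99 and 42 and had 2, 0, 78 and 14 Lag3 UMIs, or 4.85, 0, 62.9 and 24.7 CPM. Those without had 37, 6, 80 and 9 UMIs, or 4.88, 1.16, 9.58 and 1.45 CPM. KO to WT after papain was -1.35 (-2.28 to -0.51) with Foxp3 and -2.73 (-3.91 to -1.73) without, and the difference between these ratios was not tested. For Pdcd1 the same ratios were -1.51 (-2.05 to -1.0) and -2.17 (-2.65 to -1.72). Among cells with neither Foxp3 nor the division gene Mki67, Lag3 had 15, 6, 74 and 1 UMIs, the last in 858 cells of Papain KO. KO to WT there was -5.78 (-11.1 to -3.26) after papain and -0.96 (-2.61 to 0.49) after DPBS, the latter interval holding 0. Papain over DPBS was 2.09 (1.27 to 2.99) in WT and -2.73 (-8.26 to 0.31) in KO, the latter on 1 against 6 UMIs.

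CD8 T cells lost Ift20 to a like degree, at 52.1, 15.5, 52.8 and 15.8 CPM, but their Lag3 did not show the same genotype difference after papain. It was at 3.42, 2.05, 6.73 and 5.64 CPM, from 27, 11, 39 and 40 UMIs. KO to WT was -0.26 (-0.93 to 0.42) after papain and -0.74 (-1.90 to 0.32) after DPBS, and both intervals held 0. The first interval does not reach the -2.28 of CD4 T cells, but the difference between the classes was not tested. Papain over DPBS was 0.98 (0.23 to 1.74) in WT and 1.46 (0.47 to 2.57) in KO. Pdcd1 in CD8 T cells was at 5.32, 4.28, 9.84 and 13.8 CPM, with KO to WT after papain at 0.49 (0.00 to 0.99), the opposite sign to CD4 T cells. Cd160 in CD8 T cells was at 14.2, 14.5, 23.1 and 16.6 CPM, with -0.48 (-0.85 to -0.11) after papain.

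T cells without a call of CD4 or CD8 showed the genotype difference after papain as well. They came from clusters in which each cell was called by its own UMIs, among them those led by regulatory and dividing genes. Cells with a Trdc UMI in the cluster led by type 17 genes were also left without a call. Trdc was found in 10.8%, 13.8%, 4.62% and 13.7% of the class, and the part of these cells in its values was not tested. Foxp3 was found in 16.8%, 14.7%, 31.5% and 21.8% of them, against 3.51%, 2.77%, 7.27% and 4.53% of CD4 T cells. The part of CD4 T cells with no captured Cd4 in this class was not tested. Lag3 was at 7.45, 9.17, 16 and 5.46 CPM, with KO to WT after papain at -1.55 (-2.97 to -0.36). Pdcd1 was at 32.3, 44.7, 107 and 43.7 CPM, with -1.29 (-1.74 to -0.87). In NK cells Lag3 had 3, 2, 1 and 6 UMIs, too few for a comparison between libraries. T cells with NK receptors had 5, 2, 7 and 0. Plasma cells had 3, 2, 30 and 29 UMIs from 5, 3, 25 and 10 cells. Interstitial macrophages had 1, 3, 23 and 6 Lag3 UMIs, or 0.568, 2.23, 3.84 and 3.06 CPM.

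The 80 CD4 T cells with a Lag3 UMI carried many, but not all, of the activation and regulatory genes read more often than the 4328 without. They were deeper, at a median of 12551 against 5825 UMIs, so each cell was thinned to 1000 UMIs and the unthinned share follows. Both groups pooled the 4 libraries. Papain WT gave 48 of the 80 cells with Lag3 and 1313 of the 4328 without, and the part of this make-up was not tested. Pdcd1 was found in 11.2% against 1.06% (55.0% against 3.90% unthinned). The 9 cells with Lag3 that kept a Pdcd1 UMI after thinning were all of Papain WT. Unthinned, Pdcd1 was in 9 of 20, 0 of 3, 31 of 48 and 4 of 9 cells with Lag3. Without Lag3 it was in 22 of 1235, 16 of 862, 103 of 1313 and 28 of 918. Ctla4, another inhibitory receptor, was found in 35% against 4.99% (83.8% against 16.2%). Its thinned cells with Lag3 were spread over the libraries, at 7, 2, 17 and 2. The costimulatory receptors Tnfrsf4 and Tnfrsf9 were found in 33.8% against 5.55% and 16.2% against 1.04% (76.2% against 17% and 51.2% against 4.18%). All 13 thinned cells with Lag3 and Tnfrsf9 were of Papain WT, while unthinned they numbered 5, 2, 29 and 5. Those 80 cells lay mostly in 3 sub-clusters, 26 in effector or memory cells, 26 in dividing cells and 17 in effector regulatory T cells, and 4 were naive-type.

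Maf, a transcription factor that promotes Il10, was found in 31.2% of thinned cells with Lag3 and 6.12% of those without (91.2% against 20.3% unthinned), and Ikzf2, a factor of regulatory T cells, in 30.0% against 3.12% (68.8% against 7.76%). Nt5e, an enzyme that makes adenosine, was found in 20% against 3.30% (73.8% against 15.6%). The cytokine gene Il10 was found in 5.0% against 0.324% (23.8% against 0.762%). All 4 thinned cells with Lag3 and Il10 were of Papain WT, while unthinned they numbered 3, 0, 15 and 1. Cd28, Cd69, Tox, Vsir and Btla differed less or not at all after thinning. Cd28 was found in 31.2% against 28.6% and the activation gene Cd69 in 13.8% against 17.1% (93.8% against 79.9% and 75.0% against 53.5% unthinned). The transcription factor Tox was found in 6.25% against 6.19% (56.2% against 27.9%). Vsir, another inhibitory receptor, was found in 8.75% against 11.2% (62.5% against 47.2%). Btla was found in 3.75% against 2.36% (30.0% against 14.4%). Pecam1, an adhesion molecule of naive cells, went the other way after thinning. It was found in 1.25% (0.0316 to 6.77) against 8.87% (8.04 to 9.76), the first from 1 cell, but in 36.2% against 38.5% unthinned.

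**Figure D5:**
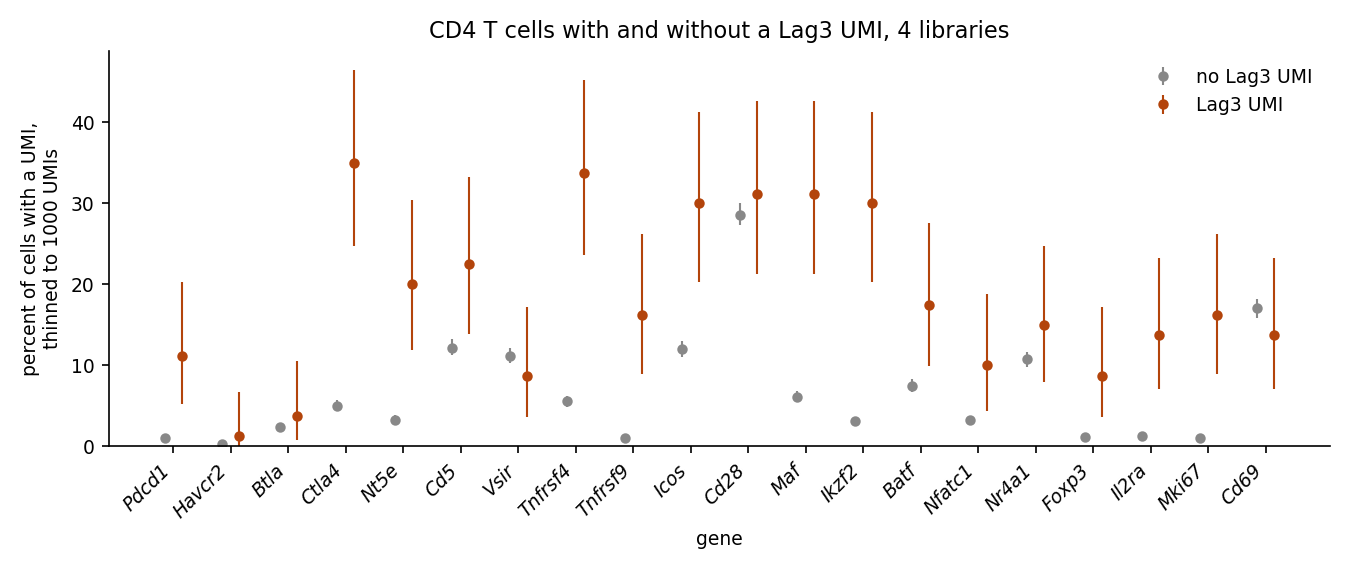
Percent of CD4 T cells with a UMI of each gene (horizontal axis) after thinning every cell to 1000 UMIs, for the 80 cells with a Lag3 UMI and the 4328 without, over all 4 libraries, with 95% Clopper-Pearson intervals. Ctla4, Tnfrsf4, Maf and Ikzf2 lie at 30.0% to 35% in cells with Lag3 and at most 6.12% in cells without. The intervals of the 2 groups overlap for Cd28, Cd69, Btla, Vsir, Nr4a1 and Havcr2. Of the 80 cells, 48 are of Papain WT.

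How often more than 1 of the 6 genes is detected in a cell is bounded by depth and does not limit how many cells express them. With no thinning, at least 2 members were detected in 23 of 1255 CD4 T cells of DPBS WT (1.83%), 12 of 865 of DPBS KO (1.39%), 76 of 1361 of Papain WT (5.58%) and 19 of 927 of Papain KO (2.05%). Papain WT again stood apart. No cell carried all 6, and 1 carried 5.

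MHC class II, a ligand of LAG3, was abundant in cells that present antigen. H2-Aa, one of its chains, was at 11883 CPM in the Cd209a-led dendritic cells and 5686 CPM in B cells. Fgl1 had 1 UMI in CD4 T cells and 0 in CD8 T cells and B cells. CD4 T cells themselves showed H2-Aa at 51.5, 35.7, 43.8 and 113 CPM, with KO to WT after papain at 1.37 (1.2 to 1.54). The B cell gene Cd79a was found in 5.26%, 3.70%, 6.17% and 6.36% of these cells, and its part in the H2-Aa value was not tested.

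The PD-1 ligand Pdcd1lg2 differed between genotypes after papain in cells that are not targets of the Cre. In interstitial macrophages it had 3, 9, 182 and 7 UMIs, or 1.70, 6.69, 30.4 and 3.57 CPM, and only Papain WT was high. KO to WT after papain was -3.09 (-4.42 to -2.02). In conventional type 1 dendritic cells it was at 33.9, 28.6, 84.6 and 13.6 CPM, and KO to WT after papain was -2.64. CD4 T cells had 1.5, 3.89, 16.7 and 7.22 CPM, with KO to WT of -1.21 (-1.70 to -0.74) after papain. In B cells it was level, at 22.2, 20.3, 22.6 and 23.6 CPM. Cd274, the other PD-1 ligand, was at 109, 101, 179 and 70.2 CPM in conventional type 1 dendritic cells, with -1.35 after papain, and at 125, 128, 134 and 129 CPM in alveolar macrophages. Both PD-1 ligand genes were thus lower in Papain KO than in Papain WT in the type 1 dendritic cluster and level in some other classes. Markers of mature dendritic cells were enriched in that cluster nearly as much as those of type 1 cells, at a mean log2 of 2.66 against 3.03. The part of mature cells in the ligand values was not tested.

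Ligands of the remaining receptors were also read. Pvr, bound by TIGIT, was at 29.5, 41.3, 36.0 and 35.8 CPM in CD4 T cells, with KO to WT after papain at -0.01 (-0.25 to 0.23) and after DPBS at 0.48 (0.21 to 0.75). Ceacam1 was highest in nonclassical monocytes at 223 CPM, the class that also led for its receptor Havcr2. Tnfrsf14, which BTLA and CD160 bind, was low in CD4 T cells, at 2.63, 1.67, 2.92 and 1.62 CPM, with KO to WT after papain at -0.85 (-2.0 to 0.20).

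Other genes of the same programme were read from lists chosen with earlier results of these data known. Of 7 genes for activating or competing partners of these receptors, 3 were lower by 2-fold or more in KO CD4 T cells after papain and 0 higher, with a median of -0.65. The same comparison gave 3.49% of all genes lower, 1.34% higher and a median of -0.10, and the counts of the other lists below are to be set beside these values. Tnfrsf4 was at 41.8, 78.1, 249 and 80.3 CPM (-1.64), Tnfrsf9 at 10.0, 12.8, 53.8 and 18.3 CPM (-1.56) and Tnfsf14 (LIGHT, a ligand of HVEM) at 2.75, 0.555, 5.53 and 1.77 CPM (-1.64). Cd226, the activating partner of TIGIT, was at 17.1, 9.25, 17 and 16.8 CPM (-0.02), and Cd28 was at 359, 371, 396 and 363 CPM (-0.12). Of the other inhibitory receptors, 3 of the 10 measured were lower and 0 higher, with a median of -0.63. Ctla4 was at 84.8, 68.9, 229 and 112 CPM (-1.03), Klrg1 at 8.25, 8.14, 35.9 and 15.9 CPM (-1.17) and Entpd1, which breaks down extracellular ATP, at 2.38, 2.78, 5.42 and 1.77 CPM (-1.62).

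Signalling and transcription factor genes were read in the same way. Of 6 phosphatase and adaptor genes that carry inhibitory signals, among them Ptpn6 (SHP-1) and Ptpn11 (SHP-2), 0 passed 2-fold in either direction, with a median of -0.26. Ptpn11 was at 27.5, 24.4, 35.1 and 28.3 CPM. Adam10 and Adam17, which cut LAG3 from the cell, also did not pass, at -0.27 (-0.52 to -0.02) and -0.56 (-0.93 to -0.20). Of 14 transcription factor genes of inhibitory receptor programmes, 2 were lower and 1 higher, with a median of -0.61. Tox2, which works with TOX in exhausted T cells, was at 2.50, 2.22, 13.6 and 2.21 CPM (-2.62), and Ikzf2 at 52.8, 38.5, 128 and 59.4 CPM (-1.11). Eomes, a factor of memory and cytotoxic cells, went the other way at 1.13, 2.41, 2.40 and 5.60 CPM (1.22). Tox itself was at 53.7, 67.7, 67.3 and 53.2 CPM (-0.34).

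Of the 15 activation and effector genes measured, 8 were lower and 0 higher after papain, with a median of -1.02, against 3.49% lower and 1.34% higher among all genes. The interleukin-2 receptor gene Il2ra was at 7.25, 7.96, 62.6 and 19.7 CPM (-1.66) and the homing receptor gene Cxcr6 at 14.5, 6.11, 79.5 and 26.7 CPM (-1.58). Foxp3 was at 13.9, 14.1, 44.1 and 21.7 CPM (-1.03), Cd44 at 46.3, 38.3, 110 and 54.1 CPM (-1.02), Il10 at 1.25, 0.370, 11.2 and 2.50 CPM (-2.16) and Ccr8 at 0.875, 2.04, 7.61 and 1.77 CPM (-2.11). The type 2 cytokine gene Il4 had 1 UMI in Papain KO against 109 in Papain WT, and Il13 had 0 against 192. These UMIs also came from few cells. In Papain WT Il4 was found in 0 cells with a Lag3 UMI and 24 without, and Il13 in 4 and 15. Early activation marker Cd69 was level at 178, 178, 222 and 212 CPM (-0.07). Of the 10 ligand genes measured in CD4 T cells, 1 was lower (Pdcd1lg2) and 3 were higher (H2-Aa, H2-Ab1 and H2-Eb1), beside the same 3.49% and 1.34%.

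Across 55 sums of 1 class in 1 library, each of at least 50 cells, the genes most like Lag3 in log2(CPM + 10) among 12076 genes were Lefty1 (Pearson r = 0.80), Siglech (0.78), Ssx2ip (0.76), Tmem221 (0.76) and Cd209d (0.76). These points share libraries and depth, so the values are a description. The Cd209a-led dendritic cells had the highest Lag3 levels of these sums. They entered for DPBS WT, Papain WT and Papain KO only, as DPBS KO had 45 such cells. The part of these few points in the r values was not tested. The other members were less like Lag3, with r of 0.26 for Btla, 0.25 for Pdcd1, 0.19 for Tigit, 0.14 for Cd160 and 0.06 for Havcr2. Tigit and Cd160 were the most alike of these genes, with r of 0.81. Tigit had only 107 UMIs in all, however, under the 200 asked of compared genes. Its highest class over the summed libraries, at 4.64 CPM, lay below the 10 added before the log2. Pdcd1 was most like Il2ra (0.96) and Tnfsf11 (0.96), and Btla was most like H2-Ob, an MHC class II gene of B cells (0.90).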

How the data were processed

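Per the file headers and labels, the authors made the matrices with Cell Ranger 3.1.0 and mm10. The deposited values are whole counts of UMIs per gene and barcode, and the annotation, cell calling and any doublet removal are not given in the sources used here. Barcodes with more than 200 genes and under 15% mitochondrial UMIs were kept, following limits stated for a different experiment of the study. Likely doublets were removed with Scrublet in scanpy 1.11.5 (Python 3.11.15), at an expected rate of 0.8% per 1000 barcodes. Cells were clustered in Seurat 5.3.0 (R 4.3.3) after integration of the 4 libraries (2000 variable genes, 30 dimensions, Louvain resolution 0.8), and T cells were clustered again at 1.2 for sub-clusters. T clusters became CD4 or CD8 where 90% of the cells with Cd4 or Cd8 UMIs were of that kind, and otherwise each cell was called by its own UMIs. Where over 10% of such a cluster had Trdc, its cells with a Trdc UMI were left without a call. Total UMIs per library ran from 53854420 to 75675956.

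UMIs were summed per class and library and divided by the class total. Intervals were computed in scipy 1.17.1 and checked on counts simulated under the same counting model. That check leaves out the clumping of UMIs in single cells, so it does not show that the intervals cover it. The members, markers and gene lists were chosen with earlier results of these data known, and class and sub-cluster names were given after clusters had been seen. All 6 members were named, with genes of the lists past 2-fold for KO to WT after papain and at least 20 UMIs, genes describing Lag3-positive cells, and the 5 genes most like Lag3. Siglech, Ccr9, the ligands other than Pdcd1lg2 and list genes given as unchanged were named after their values had been seen. Alternatives were other cell filters, no doublet removal, a gate on transcripts, no integration, a finer resolution, TMM scaling (edgeR 4.0.16), per-cell means, other weights and leaving out single cells, dividing cells or shared barcodes. Pooling uncalled T cells, leaving out deep cells or the 5 cells with most UMIs, and both list subsets were added after seeing the data. Promoter and motif letters came from RefSeq tables, which hold 5 of the 6 members and not Lag3.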

Additional observations from a re-analysis of the deposited data

Results flagged for a closer look

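These results moved in opposite directions under the same contrast in the treatments or genotypes compared, with each counting interval excluding 0, and with 1 library per group the differences between the contrasts were not tested. In Trdc-led T cells, Pdcd1 had 16, 52, 27 and 11 UMIs, in the order used above, from 34, 23, 29 and 22 cells. KO over WT gave a log2 ratio of -1.08 after papain and 1.95 after DPBS, and papain over DPBS was 0.97 in WT and -2.06 in KO. Btla in B cells gave 0.20 after papain and -0.14 after DPBS for KO to WT, both small. Havcr2 in the Cd209a-led dendritic cells gave -0.32 after papain and 0.57 after DPBS. Among the ratios of members across classes, 28 such pairs had opposite signs, and in 4 both intervals excluded 0.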

How the results depend on the processing

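Lag3 in CD4 T cells kept its direction under every alternative that gave a value. The split by Foxp3 and Mki67 was not among them, and there papain over DPBS in KO had the opposite sign in cells with neither gene. KO to WT after papain lay between -4.03 and -1.50 over 14 alternatives, and after DPBS between -3.39 and -1.01 over 12. Papain over DPBS lay between 1.17 and 2.69 in WT over 14 and between 0.74 and 2.84 in KO over 12. The values that moved beyond their counting interval were -4.03 for KO to WT after papain without the 5 cells with most UMIs and -1.50 with Papain WT sub-cluster weights. Leaving out those 5 cells of each library kept 94 of 158 UMIs in Papain WT but 4 of 23 in Papain KO. That alternative therefore lowers the ratio by its make and is no check of its direction. For papain over DPBS in WT they were 2.64 without dividing cells, 2.69 without cells over 20000 UMIs and 1.17 with those weights. The causes of the other moves were not tested. KO to WT after DPBS gave no value by the transcript gate, with 0 against 7 UMIs, or without the 5 cells with most, with 0 against 18.

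The percent of all genes past 2-fold depended on the UMI minimum. With at least 100 UMIs it was 1.51 lower and 0.374 higher for KO to WT after papain, 1.83 and 0.434 after DPBS, and 3.00 higher in WT and 1.51 higher in KO for papain over DPBS. With at least 1 UMI these were 14.8, 9.69, 15.9, 9.10, 16.2 and 15.7. Outside naive-type sub-clusters, 0 of 9 ligand genes, 1 of 10 other inhibitory receptors and 5 of 15 activation genes measured were lower in KO after papain, against 4.05% of all genes in those cells. Ligand genes higher after papain in WT were 2 of 10 there and 2 of 10 without dividing cells, against 7.49% and 6.08% of all genes. TMM factors ran from 0.949 to 1.055.

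No paired analysis was possible because each group holds 1 library.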
